A study of Equus caballus with 6 samples.

Results

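The genes described here drive the cell division cycle: the G1 cyclins and kinases that commit a cell to divide, the S phase enzymes that copy DNA, and the kinases, checkpoint proteins and spindle proteins of mitosis. They are 36 genes listed by name, and every probe set of the array whose single gene symbol was one of them was taken, which gave 39 probe sets for 31 genes, out of 24016 probe sets besides the controls and 9155 genes with a single symbol. PTTG1 shares its probe set with another gene and was left out, and MCM2, MKI67, TOP2A and KIF11 were not analysed here. Signals came from equine lamellar hoof tissue, in which folded sheets of epidermis and dermis interlock and hang the coffin bone from the hoof wall. The 3 laminitis samples (replicates 1, 3 and 4) were of diseased tissue, laminitis being the disorder in which this suspension fails, and the 3 normal samples (replicates 2, 3 and 4) were of normal tissue, all from the right foot and each on its own bovine GeneChip. The labels give no strain, age, treatment or time for either group, nor how the laminitis arose. They do not say that each sample is a different horse, so the p-values take the scatter among these 6 samples as the error, and part or all of it may be technical.

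In dividing cells, D cyclins with CDK4 and E cyclins with CDK2 open the way into S phase, where the MCM helicase unwinds DNA, PCNA clamps polymerase to it and ribonucleotide reductase and thymidylate synthase supply nucleotides. Cyclins A and B with CDK1, the Aurora and Polo-like kinases and the spindle checkpoint then carry the cell through mitosis. In the hoof wall most division takes place in the basal cells of the coronary band, and the lamellar epidermis divides little in health. Many of these transcripts are restricted to the short part of the cycle in which their products act, so in whole tissue they track the share of cells dividing. In bulk tissue, fewer dividing cells and less RNA per cell cannot be told apart.

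No cell cycle gene passed the test for a difference between laminitis and normal tissue. A probe set was tested where it was brighter than its own array's median on at least 3 of the 6 arrays, and 19 member probe sets for 18 genes met this. Limma, with p adjusted by Benjamini-Hochberg over all 12519 probe sets tested, called 0 of the 19, as it called 0% of all tested probe sets, and at an unadjusted p under 0.05 there were also 0 members, against 9.79% of all tested probe sets. Limma with an intensity trend and robust variance called 0 members as well, with 4 calls among all tested probe sets, or 0.032%. The smallest member adjusted p was 0.511 in limma, for CDK4. A difference of 2-fold or more was found for 0 of the 19, beside 5.04% of all tested probe sets. For 13 of the 19 the 95% interval of the difference lay within 2-fold in both directions, so a larger difference in either direction lies outside it. The other 6, whose intervals reached beyond 2-fold, were CDK4, MCM4, the dimmer MCM6 probe set, RRM1, AURKA and BIRC5. Among all tested probe sets 57.4% had an interval inside 2-fold.

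**Figure D1:**
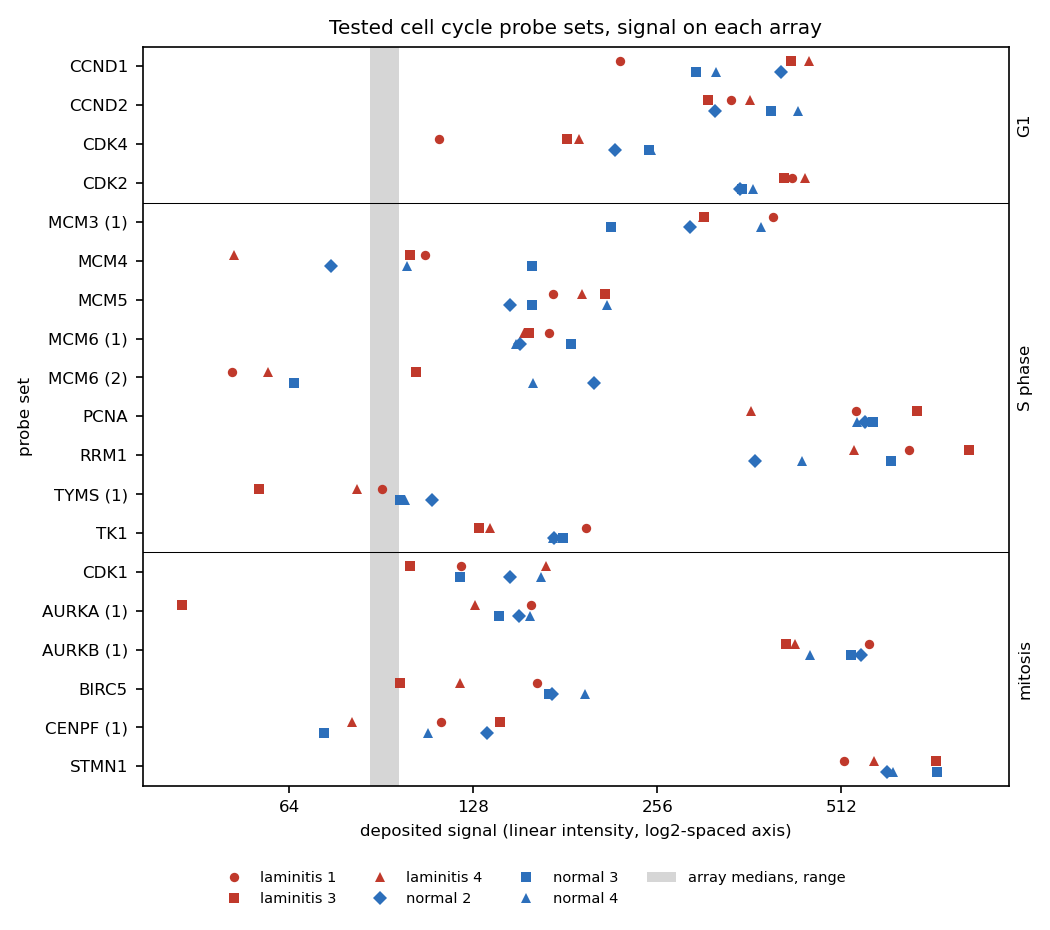
Deposited signal (linear intensity on a log2-spaced axis) of the 19 tested member probe sets on each of the 6 arrays, red for laminitis and blue for normal, with 1 marker shape per replicate number and a grey band for the array medians of 86.7 to 96.6; (1) and (2) are the brighter and dimmer probe set of a gene. The colours are apart for CDK4, CDK2, TYMS and BIRC5 and mixed elsewhere, and the red markers of AURKA spread from 42.7 to 159 where the blue ones lie between 141 and 158.

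Levels are the deposited linear signals, given for laminitis replicates 1, 3 and 4 and then for normal replicates 2, 3 and 4. The bovine probes match the horse transcripts unequally, so no probe set's level is set against another's. Signals of cell type markers are summed further on, with that limit. Among the G1 genes, CDK4, the kinase partner of D cyclins, read 112, 182 and 190.3 in laminitis and 218, 248 and 250.3 in normal tissue. Every laminitis array lay below every normal array, with replicate 1 the lowest. The log2 difference was -0.60 ± 0.26 (SE, n = 3 per group), or 1.51-fold lower in laminitis, with a 95% interval from -1.20 to 0.0039 that reaches 0 and a limma adjusted p of 0.511. Without laminitis replicate 1 the difference was -0.36.

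CDK2, which acts with E and A cyclins at the start of S phase, was apart in the other direction. It read 425, 413 and 446 in laminitis against 349.9, 352 and 367 in normal tissue, so that all laminitis arrays were higher, by a narrow margin and with little spread in either group. The log2 difference was 0.26 ± 0.17, or 1.20-fold (95% interval -0.14 to 0.67, limma adjusted p 0.65).

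The D cyclins overlapped between the groups. CCND1, which growth factor signalling induces, read 223, 423 and 453 in laminitis and 408, 296 and 319 in normal tissue, and its difference of 0.047 ± 0.32 was negative without laminitis replicate 3 or 4 or normal replicate 3, reaching -0.14. CCND2 read 337, 309 and 363 against 317, 393 and 435, with a difference of -0.17 ± 0.20. CCNE2, an E cyclin, was below the array median on all 6 arrays, at 40.6, 21.1 and 19.2 in laminitis and 21.7, 9.73 and 5.22 in normal tissue, and was not tested. Its groups overlap, and its levels lie in a range where the size of a ratio depends on the background.

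The replicative helicase, a ring of 6 MCM subunits that is loaded at origins before S phase, was measured through 5 genes with 7 probe sets, of which 5 were tested for MCM3, MCM4, MCM5 and MCM6. Each of the 5 had overlapping groups. MCM3 read 396, 305 and 303 in laminitis and 289, 215 and 378 in normal tissue, with a log2 difference of 0.21 ± 0.26. MCM5 read 173, 210.2 and 193 against 147, 159 and 212, with a difference of 0.17 ± 0.22, and MCM4 read 106, 101 and 51.9 against 74.9, 159.5 and 99.8, at -0.37 ± 0.39, or -0.032 without laminitis replicate 4.

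The 2 tested MCM6 probe sets differed from each other. The brighter one read 170.0, 158 and 155 in laminitis and 152, 185 and 150.2 in normal tissue, and its difference was -0.0097 ± 0.19 as deposited and 0.059 after quantile normalization or centring on the median. This was the narrowest pair of groups among the helicase subunits, with a 95% interval from -0.45 to 0.43. The dimmer one read 51.5, 103 and 59.1 against 201, 65.0 and 160.1, with a difference of -0.91 ± 0.47 and an unadjusted p of 0.0949. It was brighter than the array median on 3 arrays and so passed the filter by the least possible margin, and with 64 added to every signal its difference was -0.56.

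MCM7 was below the median on every array, at 35.1, 18.3 and 32.4 in laminitis and 39.4, 48.1 and 40.9 in normal tissue. All its laminitis values were the lower ones, but it was not tested. A dimmer MCM3 probe set was above the median on laminitis replicate 4 only, where it read 149.5, against 25.9 to 59.3 on the other 5 arrays.

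PCNA, the sliding clamp of the replication fork, was bright on every array. It read 541, 682 and 364 in laminitis and 559, 577 and 542 in normal tissue. The normal arrays were close together and lay inside the range of the laminitis arrays, whose highest and lowest values were also the highest and lowest of all 6. The difference was -0.13 ± 0.26 (95% interval -0.75 to 0.49), and 0.12 without laminitis replicate 4, the low array.

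Among the genes of nucleotide supply, RRM1, the large subunit of ribonucleotide reductase, had the largest positive difference of the tested members. It read 661, 829 and 536 in laminitis and 369.7, 616 and 441 in normal tissue. The groups overlap through normal replicate 3, which lay above laminitis replicate 4. The difference was 0.52 ± 0.27, or 1.43-fold (95% interval -0.13 to 1.16, limma adjusted p 0.593). RRM2, the small subunit that cells make in S phase, was below the median on every array, between 10.8 and 27.1, and could not be set beside it.

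Thymidylate synthase and thymidine kinase, which make thymidine nucleotides by synthesis and by salvage, both had lower laminitis means. The brighter TYMS probe set read 90.9, 57.1 and 82.6 in laminitis and 109.7, 96.9 and 99.1 in normal tissue, so the groups were apart, with the lowest value on laminitis replicate 3. The TYMS difference was -0.43 ± 0.23 (1.35-fold lower, 95% interval -0.99 to 0.12, limma adjusted p 0.597), and -0.23 without laminitis replicate 3. The levels straddle the array median, and laminitis replicate 1 and the 3 normal arrays were the 4 above it. The dimmer TYMS probe set, between 6.48 and 62.6, overlapped and had a difference of 0.10. TK1 read 196, 131 and 136 against 173, 179 and 172, with a difference of -0.21 ± 0.22. Its normal arrays were nearly equal, and laminitis replicate 1 lay above them while the other laminitis arrays lay below.

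The mitotic genes were measured less well. Of 20 listed, 16 had 21 probe sets, of which 12 were below the median on every array, 3 were above it on 1 or 2 arrays and 6 were tested. By contrast 9 of 13 S phase and 4 of 5 G1 probe sets were tested. Over all 39 member probe sets 41.0% were below the median on every array, beside 34.9% of all probe sets besides the controls. A low signal can come from a rare transcript or from probes that mismatch the horse sequence, and these cannot be told apart here.

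CDK1, the kinase that starts mitosis, read 122, 101 and 168 in laminitis and 147, 122 and 165 in normal tissue. The ranges overlap almost wholly, with a difference of -0.17 ± 0.25 (95% interval -0.77 to 0.43). Its partners were below the median on nearly every array. CCNA2 lay between 6.43 and 13.2 and CCNB2 between 10.3 and 24.4. CCNB1 read 61.1 on laminitis replicate 4 and 101 on normal replicate 4 and at most 17.1 on the other 4 arrays, so an array of each group stood high.

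AURKA, the Aurora kinase of the spindle poles, had the lowest difference of the tested mitotic genes, and that difference rested on 1 array. Its brighter probe set read 159, 42.7 and 129 in laminitis and 152, 141 and 158 in normal tissue. Laminitis replicate 1 was the highest of all 6 and laminitis replicate 3 far below the rest. The difference was -0.65 ± 0.48 and became -0.069 without laminitis replicate 3. The dimmer AURKA probe set lay between 8.72 and 24.0, with laminitis replicate 3 the highest. AURKB, the Aurora kinase of the chromosomal passenger complex, read 568, 416 and 429.6 in laminitis against 551, 530.1 and 455, at -0.13 ± 0.21.

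BIRC5 encodes survivin, a chromosomal passenger protein that also restrains cell death. It read 163, 97.1 and 122 in laminitis and 172, 170.2 and 195 in normal tissue, with all laminitis arrays below all normal arrays. The difference was -0.52 ± 0.24, or 1.44-fold lower (95% interval -1.09 to 0.044, limma adjusted p 0.545). Laminitis replicate 1 lay close under the normal arrays and laminitis replicate 3 was the lowest, and the difference ranged from -0.72 without the former to -0.35 without the latter.

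The remaining tested mitotic genes had overlapping groups. The brighter probe set of CENPF, a kinetochore protein of G2 and M phase, read 113, 142 and 80.9 against 135, 73.0 and 108, with a difference of 0.096 ± 0.31 that was negative without laminitis replicate 3 or normal replicate 3, reaching -0.15. STMN1, stathmin, which destabilises microtubules, read 518, 732 and 579 in laminitis and 609, 733 and 622 in normal tissue, at -0.11 ± 0.21.

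Below the filter, NUSAP1 and BUB1B had steady normal values and wide laminitis values. NUSAP1, a spindle microtubule bundler, read 12.1, 41.3 and 49.2 in laminitis and 71.8, 82.0 and 73.2 in normal tissue, so the groups were apart although every value was under its array's median. With no filter its difference was -1.38 ± 0.54, an unadjusted p of 0.0418 and a limma adjusted p of 0.664, and with 64 added to every signal the difference was -0.53. Without the filter 6 of 39 member probe sets had groups apart, beside 14.6% of all probe sets besides the controls. BUB1B, a kinase-like protein of the spindle checkpoint, read 20.2, 43.0 and 108 against 91.5, 90.5 and 97.8, and here laminitis replicate 4 was the highest of all arrays.

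The other checkpoint and exit genes overlapped at low signal. BUB1, the checkpoint kinase, lay between 4.93 and 48.9 over its 2 probe sets, and CDC20, which activates the anaphase-promoting complex, between 12.0 and 27.0. UBE2C, the ubiquitin-conjugating enzyme of that complex, read 79.0, 60.5 and 57.7 in laminitis and 28.5, 35.1 and 108 in normal tissue, where normal replicate 4 was above all others. PLK1, the Polo-like kinase, lay between 15.0 and 38.7, TPX2, which activates AURKA on the spindle, between 12.5 and 31.9 over its 2 probe sets, the dimmer AURKB probe set between 14.6 and 81.4 and the dimmer CENPF probe set between 22.7 and 83.4.

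**Figure D2:**
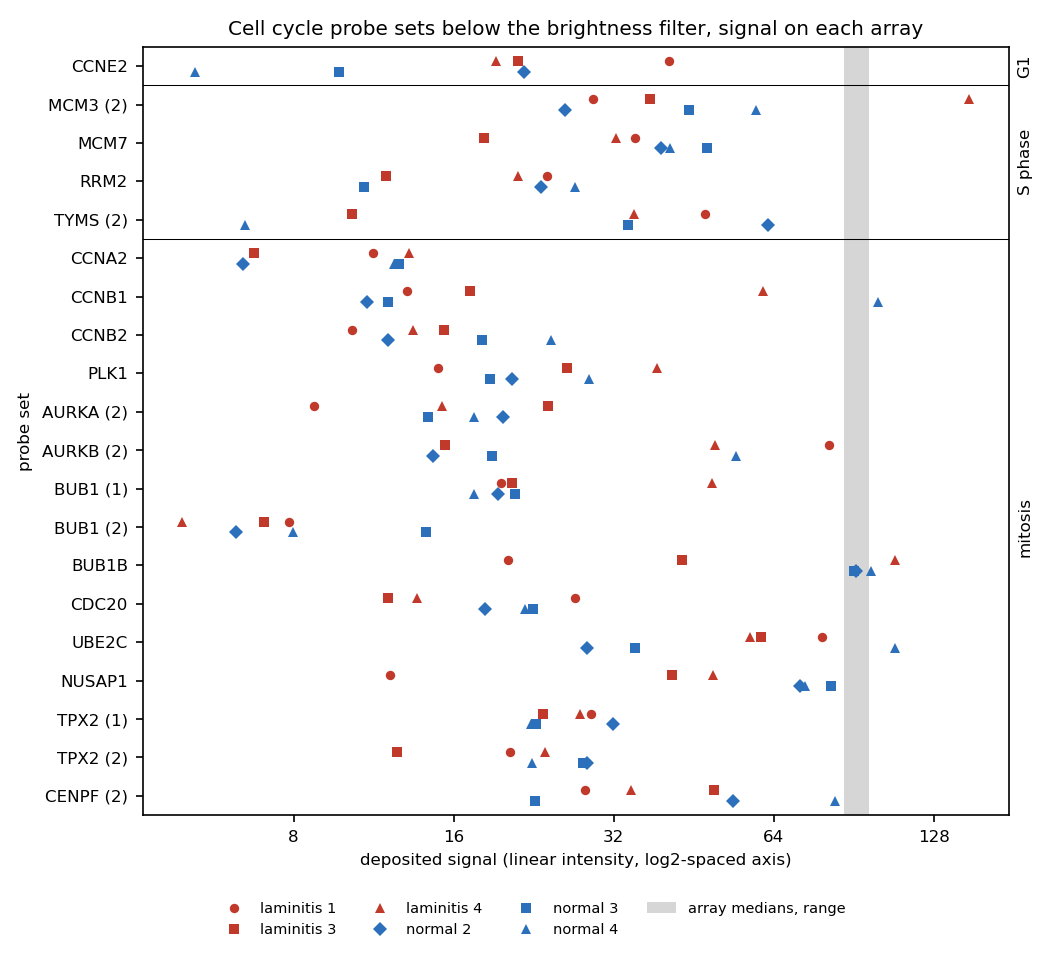
Deposited signal (linear intensity on a log2-spaced axis) of the 20 member probe sets that did not pass the brightness filter, drawn as for the tested ones, with the grey band at the array medians. Most markers lie left of the band, the groups are apart for MCM7 and NUSAP1 only, and CCNB1 stands high on replicate 4 of both groups. With no filter the groups are apart for 6 of all 39 member probe sets, beside 14.6% of all probe sets besides the controls.

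Taking the 19 tested probe sets as a set, 6 had a positive and 13 a negative log2 difference, so 31.6% were positive beside 43.7% of all tested probe sets. The median difference was -0.13, beside -0.056 over all tested probe sets. Set apart by phase, the median was -0.063 for the 4 G1 probe sets (0.046 without laminitis replicate 1), -0.13 for the 9 of S phase and -0.15 for the 6 of mitosis. Each phase held values on both sides of 0, from -0.60 to 0.26 in G1, from -0.91 to 0.52 in S phase and from -0.65 to 0.096 in mitosis. The groups did not overlap for 4 of 19, or 21.1%, beside 16.8% of all tested probe sets. By direction 1 was higher, where the share over all tested probe sets was 7.89%, and 3 were lower, where it was 8.92%. These shares are near the background. After quantile normalization or centring on the median only CDK2 and CDK4 of the 4 were still apart, where 15.7% and 16.5% of all tested probe sets were. With 1 array left out 5 to 8 were apart, namely 8 without laminitis replicate 1 and 7 without laminitis replicate 3 or normal replicate 3, where fewer arrays have to separate and the share over all tested probe sets also rose, to between 24.0% and 31.9%.

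**Figure D3:**
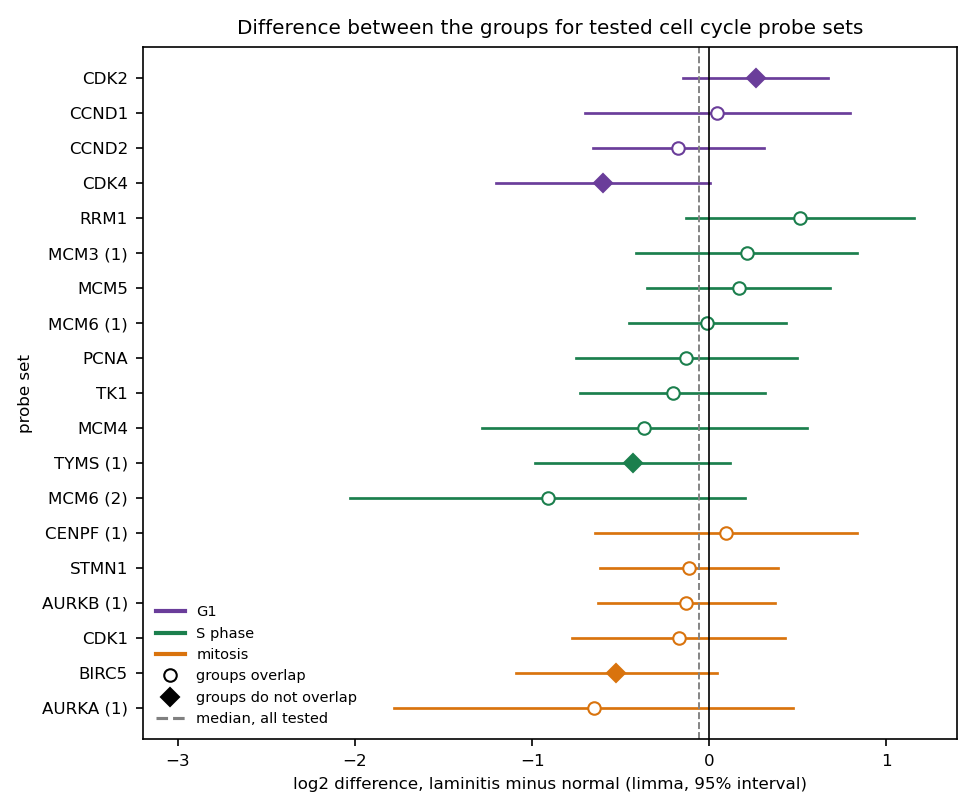
Log2 difference between laminitis and normal tissue for the 19 tested member probe sets, with limma's 95% interval as a line, coloured by phase; filled diamonds have groups that do not overlap, and the dashed line is the median of all tested probe sets at -0.056. Every interval crosses 0, that of CDK4 only just.

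The spread within a group was larger in laminitis for 12 of 19 members, or 63.2%, beside 58.8% of all tested probe sets. The median standard deviation of log2 signal was 0.355 in laminitis and 0.168 in normal tissue for the members, and 0.32 and 0.26 over all tested probe sets. In mitosis 5 of 6 had the larger spread in laminitis, with medians of 0.372 and 0.146. The clearest cases were AURKA, at 1.02 in laminitis and 0.0847 in normal tissue, PCNA, at 0.459 and 0.0457, and TK1, at 0.321 and 0.0303. The other 7, among them MCM5 and both MCM6 probe sets, ran the other way, and the brighter MCM3 probe set had 0.408 in normal tissue and 0.219 in laminitis. Having 3 arrays per group makes a standard deviation imprecise, and the difference in spread was not tested.

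Each probe set's log2 signal was also taken relative to its mean over the 6 arrays. The median over all 19 members was 0.075, -0.016 and -0.056 on laminitis replicates 1, 3 and 4 and 0.090 to 0.14 on the normal arrays, so every laminitis array lay below every normal array, by a narrow margin for replicate 1. Over all tested probe sets the laminitis arrays also lay on the lower side, at -0.0014 to 0.025 against 0.025 to 0.058 on the normal arrays. The member medians were not corrected for this shift between arrays, and the margin of laminitis replicate 1 is within its size. The median over the mitotic members was 0.11 on laminitis replicate 1, -0.33 on replicate 3 and -0.15 on replicate 4, against 0.16 to 0.19 on the normal arrays. Every laminitis array was again lower, with a wide spread among them and, for replicate 1, by a margin within that shift. Laminitis replicate 3 held the lowest value of CDK1, AURKA, AURKB and BIRC5, that is of 4 of the 6 mitotic probe sets, and of 7 of all 19, or 36.8%, beside 19.0% of all tested probe sets. The S phase members had no such pattern, with medians from -0.084 on laminitis replicate 4 to 0.14 on normal replicate 3 and both groups mixed. For the G1 members the median on laminitis replicate 1 was low, at -0.35, with the other 5 arrays between -0.0046 and 0.11. That array was the lowest for 2 of the 4, CCND1 and CDK4. For CCND2 it lay among the others and for CDK2 above every normal array.

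**Figure D4:**
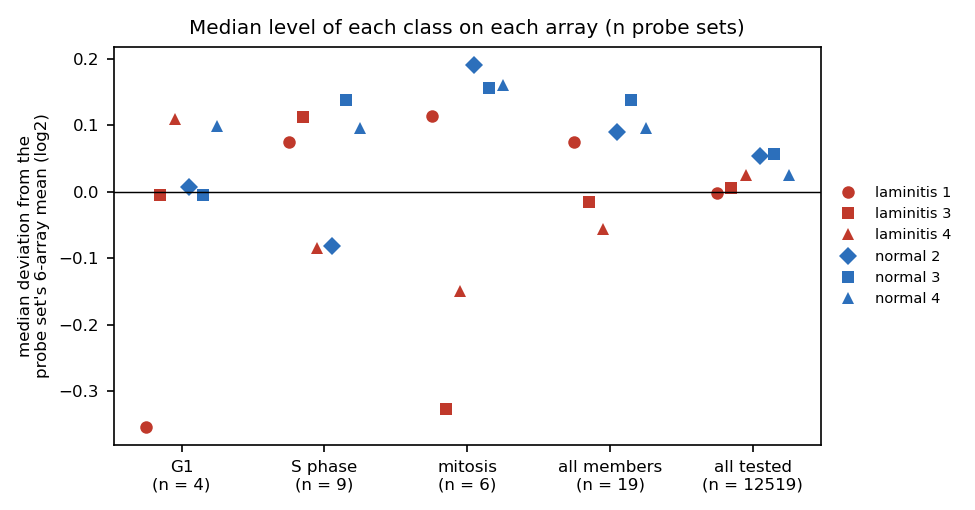
Median over the tested probe sets of each class of the log2 deviation from the probe set's own 6-array mean, 1 marker per array, red for laminitis and blue for normal. In mitosis laminitis replicate 3 lies lowest at -0.33 and replicate 1 near the normal arrays, in G1 laminitis replicate 1 lies lowest at -0.35, and in S phase the colours mix.

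Other genes of the cycle were taken from 7 lists, with the brightest tested probe set standing for its gene. The lists were chosen for known function, but with earlier results of these data known. Of 245 listed genes 97 were tested and limma called 0, with a smallest adjusted p of 0.222. At an unadjusted p under 0.05 there were 6 higher and 4 lower, where 5.33% and 4.54% of all 6151 tested genes were. Their median difference was -0.018 and 45 were positive, where 46.4% of all tested genes were. Groups were apart for 16 of the 97 genes, with laminitis higher in 8 and lower in 8, beside 17.1% of all tested genes.

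Among 29 other replication genes the median difference was -0.0039, and 14 were positive. ORC2, a subunit of the complex that marks origins, read 52.5, 54.9 and 89.1 in laminitis against 109.9, 131 and 111, at -0.88 ± 0.26, with a limma adjusted p of 0.402. RNASEH2C, a subunit of the nuclease that removes ribonucleotides from DNA, was at 0.63 ± 0.24, with a limma adjusted p of 0.494. LIG1, the ligase that joins Okazaki fragments, and POLD1, the catalytic subunit of polymerase delta, were at 0.36 and 0.37 with groups apart, while POLD2, another subunit of that polymerase, was apart in the other direction at -0.57, or -0.34 without laminitis replicate 1.

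Among 34 other mitotic genes the median was -0.11, and 11 were positive. SMC4, a condensin subunit that compacts chromosomes, read 72.6, 117 and 148 in laminitis against 176, 178 and 189, at -0.74 ± 0.29 (limma adjusted p 0.494), or -0.46 without laminitis replicate 1. KIF22, a chromosome-bound kinesin, had groups apart the other way at 1.24 ± 0.60, with normal values from 30.2 to 179, and was at 0.52 without normal replicate 2 and 1.80 without normal replicate 4. WEE1, the kinase that holds CDK1 inactive, and CDC25C, the phosphatase that activates it, were both apart as lower in laminitis, at -0.65 and -0.30. NCAPD3 was apart as lower too, at -0.31. WEE1 was at -0.19 without laminitis replicate 3, and CDC25C at -0.18 without laminitis replicate 1.

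The list of p53 targets, damage checkpoint and antiproliferative genes had 8 tested members, all with a positive difference and a median of 0.46, and 3 with an unadjusted p under 0.05. SFN and SESN2 hardly differed between the groups, at 0.00060 and 0.0063. Of all tested genes 46.4% were positive and 5.33% were higher at an unadjusted p under 0.05. BTG1, an antiproliferative cofactor of mRNA deadenylation, read 14501, 14934 and 12386 in laminitis and 6725, 6085 and 7599.8 in normal tissue. Its groups were well apart, with a difference of 1.04 ± 0.19, or 2.05-fold, and a limma adjusted p of 0.222. It is a bright signal, and after quantile normalization its difference was 0.63.

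The related BTG3 was at 0.89 ± 0.24 (limma adjusted p 0.352), with 0.58 after quantile normalization. CCNG1, a cyclin that p53 induces, read 529, 521 and 541 in laminitis against 361, 289 and 365, at 0.66 ± 0.19 (limma adjusted p 0.388). The other 5 members had overlapping groups, with PLK2 at 0.87, SESN1 at 0.26, GADD45B at 0.15, SESN2 at 0.0063 and SFN at 0.00060. Dimmer tested probe sets of SESN2 were at -0.49 and 0.60. CDKN1A, p21, the CDK inhibitor that p53 induces, was at 0.41 ± 0.28 with overlapping groups, and 0.20 without laminitis replicate 1.

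CDKN1C, p57, a CDK inhibitor of differentiating cells, was on the lower side. Its brighter probe set read 143, 197 and 349.6 in laminitis against 495, 479 and 704 in normal tissue, with a difference of -1.36 ± 0.36 and a limma adjusted p of 0.346, while the dimmer one was at -0.13. In the list of RB, E2F and MYC factors 7 of 9 were positive, with a median of 0.13. TFDP1, the partner of E2F factors on DNA, read 204, 226 and 215 in laminitis and 90.2, 151 and 135 in normal tissue, at 0.81 ± 0.24 (limma adjusted p 0.408). MAX, the partner of MYC, was at 1.48 ± 0.62 with overlapping groups, since normal replicate 4 read 263 and the other normal arrays 73.4 and 44.3, and it was at 2.21 without that array and 0.93 without normal replicate 3.

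The other G1 and S control genes had 1 of 7 positive and a median of -0.16, with none at an unadjusted p under 0.05. Among 8 genes of growth factor signalling in epidermis (ligands, receptors and the EGFR feedback inhibitor ERRFI1) the median was -0.11. FGF10, a mesenchymal growth factor for epithelia, read 73.5, 161 and 179 in laminitis against 245, 269.6 and 273, at -1.03 ± 0.35 (limma adjusted p 0.456), or -0.63 without laminitis replicate 1.

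**Figure D5:**
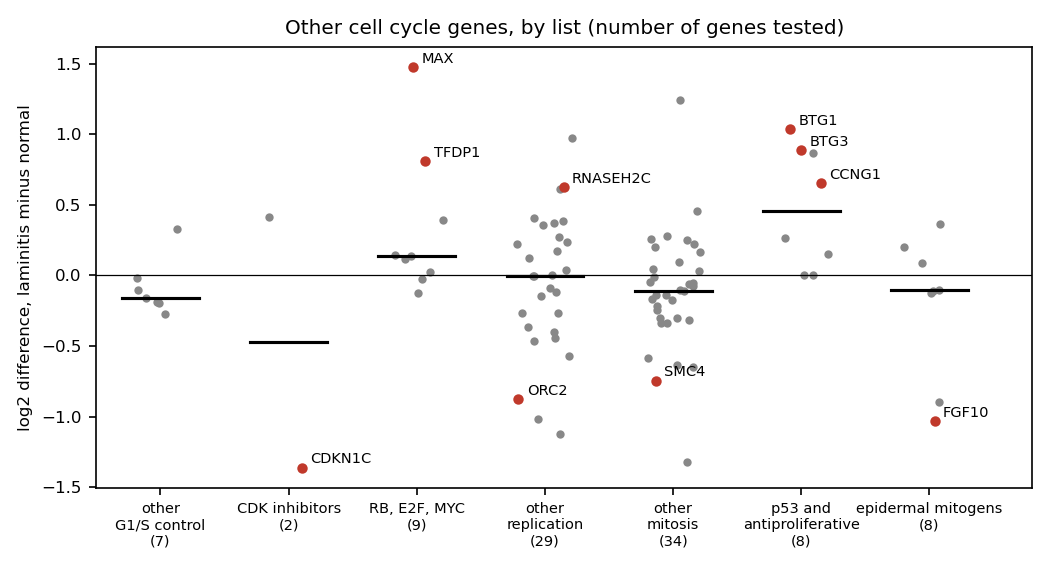
Log2 difference between laminitis and normal tissue of the 97 tested genes of the other cell cycle lists, 1 point per gene, with the list median as a bar; red points with names had an unadjusted limma p under 0.05, and none passed after adjustment. The list of p53 and antiproliferative genes lies at or above 0 throughout, while the larger replication and mitosis lists spread to both sides of 0.

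Markers of the cells that could hold these transcripts were measured beside them. Their sums add the signals of unlike probe sets, so the brightest probe sets weigh most and a sum can hide markers that go the other way. The 5 tested basal keratinocyte markers had summed signals of 1218 to 1943 in laminitis and 777 to 1634 in normal tissue. KRT5 and KRT14 among them were above the median of every array, with lowest values of 186 and 143. ITGB4 on normal replicate 4, at 76.5, and COL17A1 on laminitis replicate 1, at 85.4, were under their array's median. Markers of lymphocytes, another possible source of cycling cells, summed to 1076 to 1346 over 7 genes in laminitis and 1244 to 1381 in normal tissue. Of these CD2 was apart as lower, at 106, 64.2 and 177 against 259, 188 and 189, with a difference of -0.98 ± 0.38. CD4 was apart as higher, at 0.30 ± 0.20, while its dimmer tested probe set was at -0.67. The rest had overlapping groups. The summed signals of 2 leukocyte lists were apart between the groups. The 4 tested neutrophil markers summed to 1495 to 12990 in laminitis and 503 to 983 in normal tissue, with higher values of S100A8 and S100A9 and lower values of MPO and ELANE in laminitis, and the 4 monocyte and macrophage markers summed to 612 to 739 and 468 to 520. CYBB set the latter list apart. It read 233, 265 and 256 in laminitis and 37.4, 40.8 and 107 in normal tissue. The other 3, with MSR1 at 0.59, CD14 at -0.16 and CD68 at -0.26, summed to 357 to 474 in laminitis and 361 to 483 in normal tissue. Stromal genes were measured beside FGF10 and CDKN1C. The 8 fibroblast markers summed to 8658 to 30570 in laminitis and 8620 to 31340 in normal tissue. Of these DCN, decorin, was apart as lower, at 724, 787 and 1199 in laminitis and 2365, 1685 and 4898 in normal tissue, with a difference of -1.61 ± 0.42. PDGFRA was apart the other way, at 285, 319 and 316 in laminitis and 279, 210 and 236 in normal tissue, with a difference of 0.35 ± 0.20. Of the 8 fibroblast markers 5 had a positive difference. The 4 smooth muscle and pericyte markers summed to 2616 to 4015 and 3688 to 4431, with TAGLN apart at -0.83 ± 0.34. The tested endothelial, suprabasal keratinocyte, pan-leukocyte, and melanocyte and Schwann markers had overlapping sums. Of the 2 pan-leukocyte markers CD52 was apart as higher, at 0.36 ± 0.18, and LCP1 overlapped, at -0.084 ± 0.25. No marker was listed at 0. The ratio of 3' to 5' control probe sets of GAPDH, a gauge of RNA integrity, was 9.70 on laminitis replicate 1 and 4.06 to 6.87 on the other arrays. For actin it was 6.62, 4.71 and 4.78 in laminitis and 6.25, 2.08 and 4.24 in normal tissue, with normal replicate 3 the lowest and laminitis replicate 1 close to normal replicate 2. The part of these ratios in the low CCND1 and CDK4 values of laminitis replicate 1, and that of the leukocyte and stromal markers in any difference given here, was not tested.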

How the data were processed

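RNA of 3 laminitis and 3 normal lamellar samples was read on Affymetrix bovine arrays, per the labels' protocols, and samples were grouped by their titles. The deposited values are linear intensities, and their mean after trimming 2% at each end is 150.02 or 150.03 on every array. GCRMA is named in the submitters' processing notes, but such values are not what GCRMA yields, so the step that made them is open. Gene symbols are bovine, taken from an annotation of the platform that can be outdated, and all 36 member symbols occur in RefSeq's table of horse genes.

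After leaving out 112 control probe sets, log2 signals, without an offset, were fitted with limma 3.58.1 (lmFit, then eBayes; R 4.3.3), with two-sided p adjusted by Benjamini-Hochberg over all tested probe sets, with a threshold of 0.05. Errors are standard errors from limma, intervals are at 95% and folds are of geometric means. The procedure was tested on simulated data. No array pair shared a value. Precision is limited by the number of arrays.

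The members and lists were chosen with earlier results of these data known. Values on every array are given for tested members and for some of the dimmer member probe sets, the rest being given as ranges. Other list genes whose values are given had an unadjusted p under 0.05 or groups apart, the latter added after their values were seen. Values are also given for CDKN1A and for the rest of the p53 list. For some of these genes only the difference is given. Alternatives were other filters, quantile normalization, centring, 64 added to signals, another variance model, the replicate number as a block, the brightest probe set per gene and leaving out each array.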

Additional observations from a re-analysis of the deposited data

How the results depend on the processing

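Limma called 0 members under each of the 14 alternatives, including the replicate number as a block, where the smallest member unadjusted p was 0.0527, for MCM4. The titles do not say whether the numbers 3 and 4, shared by the groups, pair the samples. The correlations of their deviations from the group means over tested probe sets were -0.017 and -0.031. With 3 arrays per group these values cannot decide whether the samples are paired. The median over all members, -0.13 as deposited, was -0.033 with a stricter filter, which left 8 members, and -0.060 after centring on the median. The S phase median became 0.21 with the stricter filter, which left 3 of its probe sets, and ranged from -0.17 to 0.016 with 1 array left out. The G1 median, -0.063 as deposited, was 0.047 with no filter or a stricter one, 0.0059 after centring and 0.046 without laminitis replicate 1. The number of members with groups apart was 4 of 19 as deposited. It was 1 of 8 with the stricter filter, beside 18.7% of all probe sets tested in that setting. It was 2 of 19 after quantile normalization, beside 15.7%, and 2 of 19 after centring on the median, beside 16.5%. With 1 array left out it was 5 to 8 of 19, beside 24.0% to 31.9%. The brighter MCM6 probe set changed sign after quantile normalization (0.059) and centring on the median (0.059). With 1 array left out, values that took both signs ranged from -0.064 to 0.087 for that probe set, from -0.14 to 0.37 for CCND1, from -0.15 to 0.31 for CENPF and from -0.34 to 0.12 for PCNA. The cause of these changes was not tested, other than that the stricter filter tests fewer probe sets. The alternatives for 18 genes of the other cell cycle lists were chosen after the data were seen, and under them 0 changed sign or passed the threshold. Signals below the array median limit what can be read of most mitotic genes.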
